A study of Danio rerio with 24 samples.

Results

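The genes described here encode proteoglycans of zebrafish cartilage, proteins that link or organise them, and a secreted cartilage glycoprotein (cnmd). They are acana, acanb, matn1, matn3a, matn3b, matn4, hapln1a, hapln1b, epyc and cnmd. They were found by symbol in the deposited tables, where they make up 10 of 25432 genes, 1 row each in every table. RNA from whole zebrafish embryos was sequenced at 4 days post fertilization, with 24 libraries from 4 CRISPR-Q lines. In each line, 3 libraries came from 3TG embryos, which carried the CRISPR-Q components and a guide, and 3 from 2TG embryos, described as their siblings, which carried the components and no guide. The smn1 line (QKD, a knockdown) had a guide to smn1 and the tardbp line (QKD) had an array of guides to tardbp and tardbpl, while the lin28a and sox9b lines (Qa, an activation) had single guides to the named gene. All 8 groups, 2TG included, carried the QFvpr driver behind the heat-inducible hsp70l promoter, were kept at 28.5 °C and received 1 h of heat at 2 days and again at 3 days. The driver is therefore not limited to cartilage, and any effect of the heat or of the driver alone is shared by both groups of a comparison. The labels do not say whether the libraries of a group came from separate clutches, so the p-values measure the spread between these libraries, which may be technical. How many embryos went into a library is not given in the sources used here.

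Cartilage is a gel held in a fibrous net. Aggrecan, a large core protein hung with chondroitin sulfate chains, binds hyaluronan and draws in water, and link proteins of the Hapln family lock aggrecan onto hyaluronan. Matrilins connect the collagen fibrils with the proteoglycans, epiphycan is a small leucine-rich proteoglycan of growing cartilage, and chondromodulin is a secreted glycoprotein of avascular cartilage that in mammals inhibits blood vessel growth. At 4 days the zebrafish head skeleton consists largely of such cartilage. In mammals the transcription factor SOX9 activates the genes of aggrecan, link protein and several cartilage collagens, and zebrafish has the paralogs sox9a and sox9b.

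Levels are given in TPM, the abundance of a gene's transcripts per length scaled to a fixed total in each library, so that genes can be compared within a library. In 23 libraries the listed values summed to between 98.4% and 99.0% of that total, and in tardbp 3TG replicate 3 to 77.8%. In that library 3 genes held 34.3% of the total, against 0.109% to 1.29% in the others, which lowers every other value there. Results of the tardbp line are therefore also given after median centring, in which each library's log2 values are set relative to its own median gene. Between the groups of their own line all 5 targeted genes separated without overlap as deposited, lower in 3TG after knockdown and higher after activation. Of all genes tested, 29.1% were lower without overlap in tardbp. In either direction, 19.2% were without overlap in smn1, 6.56% in lin28a and 4.75% in sox9b. In the sox9b line, sox9b stood at 17.1, 18.4 and 18.2 TPM in 2TG and 39.7, 34.8 and 31.5 TPM in 3TG. Read depth is unknown, because the tables hold no counts. Lines were deposited in separate tables, so levels set across lines are descriptions. In bulk RNA of whole embryos, fewer cartilage cells and less RNA in each of them cannot be told apart.

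All 10 genes stood at 1 TPM or more in all 24 libraries. Matrilin 1 (matn1), long known as cartilage matrix protein, was the most abundant by its median of 240.6 TPM over the 24 libraries, from 69.2 in tardbp 2TG replicate 1 to 380.2 in sox9b 2TG replicate 3. The second was matn4, a matrilin that also occurs outside cartilage in mammals, with a median of 180.1 TPM and a range of 95.1 to 249. It was also the steadiest member: the coefficient of variation among the 3 libraries of a group had a median of 16.1% over the 8 groups. Chondromodulin (cnmd) followed with a median of 107 TPM (48.8 to 176) and epiphycan (epyc) with 97.7 TPM (42.3 to 172).

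Lower in the order came matn3a with a median of 67.6 TPM (21.1 to 113), the link protein gene hapln1a with 45.7 TPM (14.4 to 95.4) and matn3b with 24.4 TPM (10.6 to 37.7). The aggrecan genes, which encode large proteoglycan core proteins, were among the lowest: acana had a median of 9.45 TPM (2.10 to 15.6) and acanb of 5.22 TPM (1.91 to 8.42). The second link protein gene, hapln1b, lay between them at 8.17 TPM, and its range of 3.71 to 45.7 TPM was the widest in proportion. Its coefficient of variation within groups had a median of 52.2%, and that of hapln1a was 39.8%.

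The order of neighbours was not equally firm. Within the same library matn1 exceeded matn4 in 17 of 24 libraries and acana exceeded hapln1b in 15. Over all 24 libraries neither of these pairs was separated beyond the spread. In the sox9b line alone matn1, at 257 to 380.2 TPM, lay above matn4, at 152 to 187 TPM, without overlap. Further down, cnmd exceeded epyc in 22 libraries, epyc exceeded matn3a in 22, and matn3a exceeded hapln1a in 19. Both aggrecan genes lay below matn3b in all 24 libraries. Of the summed TPM of the 10 genes, matn1 held a median of 29.5% (12.9% to 35.8%), matn4 22.7%, cnmd 14.4% and epyc 12.1%. The aggrecan genes held 1.12% and 0.626%.

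**Figure D1:**
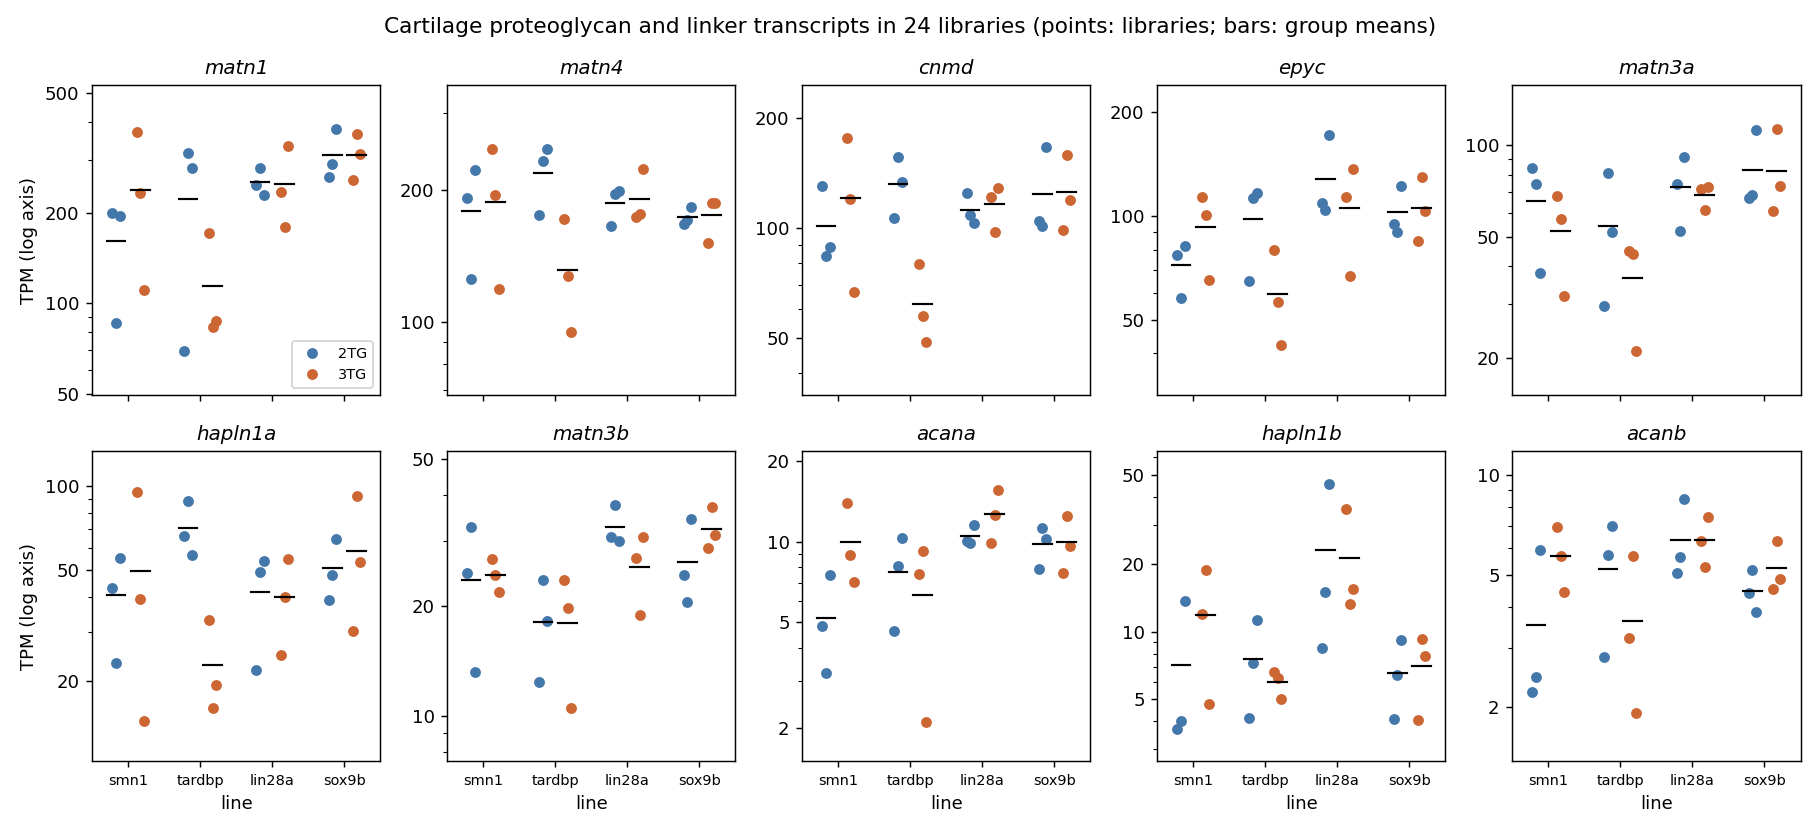
TPM of each gene (log axis, 1 panel a gene in order of median) in the 2TG and 3TG libraries of the 4 lines, with points for libraries and bars for group means of 3. Levels fall from matn1, at a median of 240.6 TPM, to acanb, at 5.22 TPM, and in most panels the points of both groups interleave.

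No gene of the 10 passed the threshold of 0.05 on the adjusted p (limma, Benjamini-Hochberg over all genes tested in the line) in any of the 4 lines, and all 10 were tested in each. The share of all genes tested that passed was 0% of 19660 in smn1, 0.0103% of 19336 in tardbp, 0% of 19580 in lin28a and 0% of 19619 in sox9b. Of the 40 comparisons of a member within a line, 3 had an unadjusted p under 0.05, namely acana in smn1 and hapln1a and cnmd in tardbp, where 12.3% and 13.7% of all genes tested had one. The shares of all genes were 1.78% in lin28a and 1.22% in sox9b, with no member among them. With 3 libraries against 3, an exact permutation test of a single gene cannot give a p below 0.1.

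In the tardbp line hapln1a and cnmd had the lowest 3TG values relative to 2TG of the 10 genes. Link protein 1a (hapln1a) stood at 66.2, 88.5 and 56.7 TPM in 2TG and 33.1, 16.0 and 19.3 TPM in 3TG. Every 3TG library lay below every 2TG library. The difference was -1.63 on the log2(TPM + 1) scale (SE 0.412, unadjusted p = 0.000903, limma adjusted p = 0.329), where the median of all genes tested was -0.45. After median centring the difference was -1.19 (SE 0.366, limma adjusted p = 0.482), and -1.41 when tardbp 3TG replicate 3 was also left out (limma adjusted p = 0.180). The groups still did not overlap after centring.

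Chondromodulin (cnmd) stood at 106, 157 and 133 TPM in 2TG and 79.7, 57.5 and 48.8 TPM in 3TG of the tardbp line, again without overlap. Its difference was -1.09 (SE 0.398, unadjusted p = 0.0133, limma adjusted p = 0.339), -0.65 after centring (limma adjusted p = 0.482) and -0.80 after centring without tardbp 3TG replicate 3 (limma adjusted p = 0.251). The third member without overlap was matn4, at 176, 234 and 248 TPM in 2TG and 172, 127 and 95.1 TPM in 3TG. The highest 3TG value of matn4 was close to the lowest 2TG value, and its groups overlapped after centring, where the difference went from -0.76 to -0.32. In all 3 members without overlap the 3TG values were the lower ones, as they were in 29.1% of all genes tested in this line (0.176% were higher). After centring 2 of 10 were lower without overlap, hapln1a and cnmd, where the share of all genes was 8.53%. With totals rescaled without mitochondrial and the 20 most abundant genes, 1 of 10 was without overlap. In either direction 18.2% of all genes then were.

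Both hapln1a and cnmd passed in a fit that shared 1 estimate of the spread over all 24 libraries, with no centring (limma adjusted p = 0.0403 and 0.0243). That fit called 14.7% of 21099 genes for the tardbp line, and 2 of the 10 members, so the members' share is near that of all genes. In the fit of the line alone the members had a median difference of -0.61, where that of all genes tested was -0.45. All 10 differences were below 0, as were 83.0% of those of all genes tested. After centring 4 were above 0 and 6 below, with a median of -0.17, where the median of all genes tested was -0.01.

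The remaining members of the tardbp line overlapped between groups. The matrilin matn1 stood at 69.2, 315 and 281 TPM in 2TG and 172, 83.6 and 87.5 TPM in 3TG, and the lowest of the 6 values was a 2TG library. Epiphycan (epyc) stood at 64.8, 113 and 117 TPM in 2TG and 79.6, 56.4 and 42.3 TPM in 3TG. In this line, as deposited, 2TG replicate 1 was the lowest of its group in 9 of the 10 genes and 3TG replicate 3 the lowest of its group in 8. After median centring 2TG replicate 1 was still the lowest in 9. In contrast, 3TG replicate 3 was then the lowest in 1 and 3TG replicate 2 in 8. Without 2TG replicate 1, 8 of the 10 genes did not overlap between groups, in place of 3, and 38.7% of all genes tested did not. Of these libraries, 2TG replicate 2 alone is written with 6 decimals and the others with 6 significant digits, and without it the difference was -1.45 for hapln1a and -0.96 for cnmd.

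Shares of the members' summed TPM do not move with the scaling of a library. As parts of the same sum they are tied, so a lower share of any member raises those of the others. No test of the shares was run. If groups do not differ, 3 values lie apart from 3 others with a probability of 0.1, and 40 shares were compared. There is no share over all genes to set beside them. The share held by hapln1a in the tardbp line was 9.0% ± 3.17 in 2TG (SD, n = 3, from 6.06% to 12.4%) and 4.95% ± 1.07 in 3TG (3.75% to 5.79%), without overlap. The share of matn3b was higher in 3TG without overlap, 2.18% ± 0.203 against 3.86% ± 0.744, and so was that of epyc, 11.9% ± 0.808 against 12.9% ± 0.309. The summed TPM itself was 834 ± 263 in 2TG and 460 ± 147 in 3TG. For cnmd the shares of both groups overlapped. In the other lines the only shares without overlap were those of acana in smn1 and matn3b in sox9b.

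Sums of marker genes of other tissues in this line are given beside these values. The summed TPM of 7 notochord markers, a tissue that shares many matrix genes with cartilage, was 107 to 116 in 2TG and 40.9 to 84.1 in 3TG, and the defining marker noto was under 1 TPM throughout. The sum of the 7 cartilage markers, 4 of them members, was 783 to 1439 in 2TG and 488 to 761 in 3TG. For the fin fold markers it was 415 to 787 against 260 to 582, and for the 5 bone markers 62.2 to 130.1 against 40.3 to 185. For tendon markers it was 54.0 to 70.3 against 26.0 to 88.1, and for hair cell and otic markers 21.5 to 47.4 against 16.5 to 41.5. For endocardium markers it was 21.2 to 41.5 against 16.5 to 31.3, and for whole embryo markers 22046 to 24367 against 9544 to 22128. Singly, 4 of 6 notochord markers tested were lower without overlap, where 29.1% of all genes were. After centring 1 of 6 was, where the share of all genes was 8.53%. No marker of these lists was at 0 in a whole line. As deposited, a library-wide shift moves all these sums, and the part of other tissues in the values of hapln1a and cnmd was not tested.

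**Figure D2:**
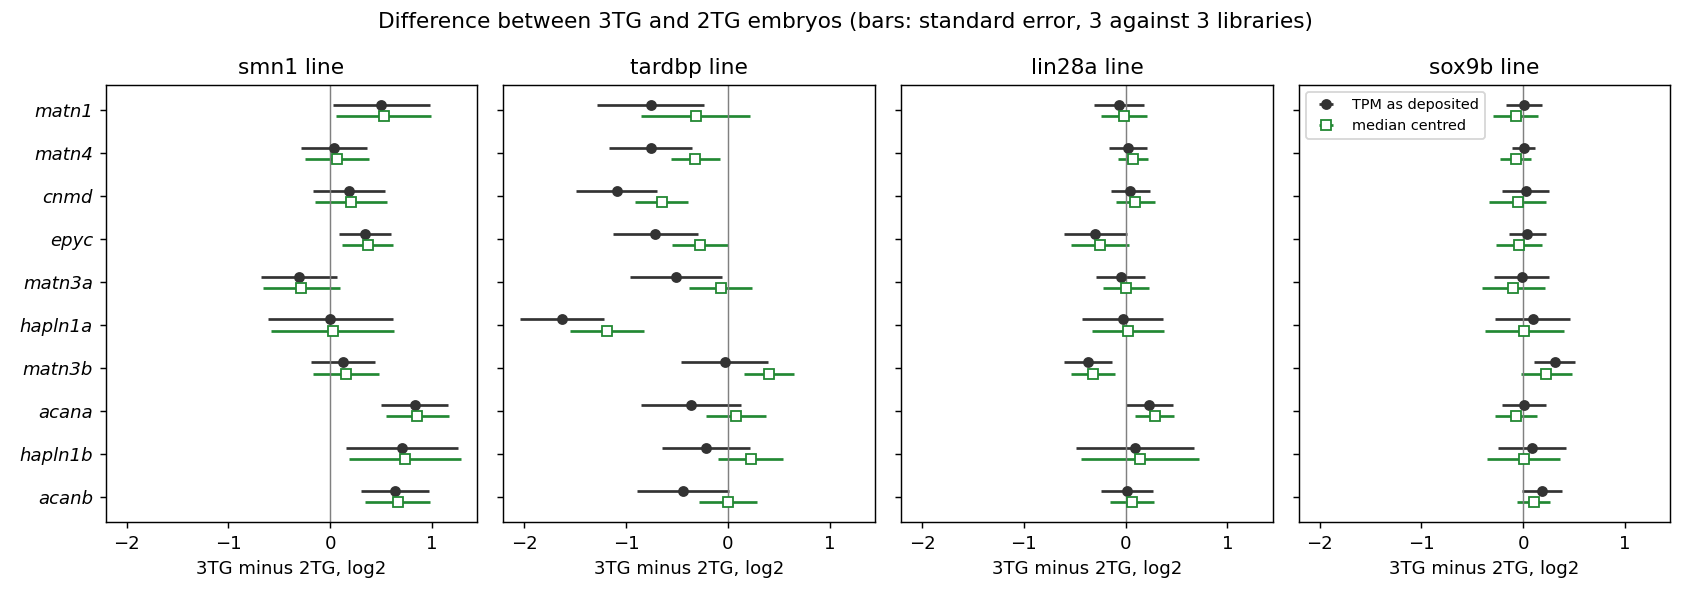
Difference of 3TG from 2TG for each gene in each line, on the log2(TPM + 1) scale, as deposited (filled circles) and after median centring (open squares), with bars for 1 standard error of the limma fit. In the tardbp line hapln1a lies at -1.63 as deposited and -1.19 after centring, and in the sox9b line the members lie between -0.02 and 0.31 as deposited.

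In the smn1 line the aggrecan transcripts were the ones with the smallest p. For acana the values were 4.85, 3.23 and 7.49 TPM in 2TG and 13.9, 8.89 and 7.03 TPM in 3TG. The groups overlapped through 1 library of each group, since 2TG replicate 3 lay above 3TG replicate 3. The difference was 0.83 (SE 0.328, unadjusted p = 0.0344, limma adjusted p = 0.382). Its paralog acanb stood at 2.21, 2.45 and 5.91 TPM in 2TG and 6.97, 5.70 and 4.42 TPM in 3TG, a difference of 0.64 (SE 0.333, limma adjusted p = 0.444). None of the 10 members was without overlap in this line, where 19.2% of all genes tested were. The share of acana in the members' summed TPM did not overlap, at 0.777% ± 0.227 in 2TG and 1.3% ± 0.243 in 3TG (SD, n = 3). Those of all other members overlapped in this line.

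The 3 libraries of smn1 3TG lay far apart. Replicate 3 of 3TG was the lowest of its group in 10 of 10 genes and replicate 1 the highest in 9, both as deposited and after median centring. For hapln1a these were 14.4 and 95.4 TPM, the lowest and the highest values of all 24 libraries, while 2TG stood at 43.3, 23.2 and 55.2 TPM. Its fitted difference of -0.0011 had a 95% interval of 0.377 to 2.65 as a fold. For matn1 the values were 200.2, 86.3 and 195 TPM in 2TG and 372, 232 and 111 TPM in 3TG (difference 0.50, SE 0.476). Without 2TG replicate 3, 4 of the 10 genes did not overlap between groups, where 35.8% of all genes tested did not. Without 3TG replicate 3 there were 3 of 10, where the share of all genes was 28.1%.

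The smn1 table mixes values written with 6 decimals (2TG replicates 1 and 2, 3TG replicate 1) and with 6 significant digits (the other 3). Within the libraries with 6 decimals the difference of acana was 1.58, and within the others 0.07. For hapln1a these were 1.56 and -1.17, and for matn1 1.49 and -0.28. In 8 of the 10 genes the sign was opposite in the 2 formats as deposited. One of them, epyc, had the same sign in both after median centring (0.71 and 0.085). Each format had 1 library on a side, 3TG replicate 1 with 6 decimals and 2TG replicate 3 with 6 significant digits. The same count over all genes was not made. What the formats stand for is not given in the sources used here, and their part in the differences was not tested. Summed bone markers in this line were 53.0 to 81.9 TPM in 2TG and 101 to 192 TPM in 3TG, without overlap. Much of that sum was col10a1a, at 61.7 ± 15.7 against 112 ± 36.8 TPM. Summed endocardium markers were 19.7 to 32.5 against 34.3 to 91.8. Of the bone markers 3 lay above 0 and 2 below, and of the endocardium markers 2 above and 1 below. Singly, 2 of 5 bone and 1 of 3 endocardium markers were without overlap, where 19.2% of all genes tested were. The cartilage marker sum overlapped, at 632 to 1042 against 621 to 1779.

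The sox9b line raises a transcription factor whose mammalian counterpart activates several of these genes. The sox9b transcript itself differed by 0.94 on the log2(TPM + 1) scale (SE 0.134, limma adjusted p = 0.733) without overlap between groups. Its paralog sox9a stood at 49.6, 70.2 and 43.1 TPM in 2TG and 55.7, 61.9 and 60.6 TPM in 3TG, with overlap. For the 10 members the differences lay between -0.02 and 0.31, and none was without overlap, where 4.75% of all genes tested were.

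The most abundant members were nearly level in the sox9b line. The matrilin matn1 stood at 263, 292 and 380.2 TPM in 2TG and 257, 365 and 314 TPM in 3TG. Its difference was 0.01, with a 95% interval of the fold from 0.761 to 1.32. For matn4 the values were 168, 171 and 184 TPM in 2TG and 152, 187 and 187 TPM in 3TG, with an interval from 0.835 to 1.21. These intervals leave room for changes of that size, and the widest, that of hapln1a, ran from 0.591 to 1.92. Aggrecan (acana) stood at 7.92, 11.3 and 10.2 TPM in 2TG and 7.65, 12.5 and 9.66 TPM in 3TG, with an interval from 0.715 to 1.42. Type II collagen (col2a1a), the main fibril protein of cartilage, stood at 365, 414 and 516 TPM in 2TG and 379, 558 and 472 TPM in 3TG.

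The largest difference of a member in the sox9b line was that of matn3b, at 24.3, 20.5 and 34.3 TPM in 2TG and 28.7, 37.2 and 31.1 TPM in 3TG (0.31, SE 0.201, limma adjusted p = 1.00). Its share of the members' summed TPM was 2.93% ± 0.362 in 2TG and 3.58% ± 0.320 in 3TG (SD, n = 3), without overlap. As deposited, 3TG replicate 1 was the lowest of its group in 10 of 10 genes and 3TG replicate 2 the highest in 9. In 2TG, replicate 3 was the highest in 8. After median centring these 3 counts were 10, 9 and 9. No such count was made over all genes, here or in the other lines, so whether other genes share this order was not tested. For the members' summed TPM the spread within a group was larger than the difference between the group means, at 893 ± 169 in 2TG and 914 ± 191 in 3TG.

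In the lin28a line the members lay between -0.37 (matn3b) and 0.23 (acana), 5 above and 5 below 0, with a median of -0.01. No member was without overlap, where 6.56% of all genes tested were. The second link protein gene, hapln1b, had its highest values here. It stood at 8.49, 15.1 and 45.7 TPM in 2TG and 35.4, 13.4 and 15.5 TPM in 3TG. Each group held 1 library far above the other 2, so its difference of 0.09 had a 95% interval of the fold from 0.424 to 2.67. In the other 3 lines no library exceeded 18.9 TPM for this gene.

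The member of lowest p in this line, matn3b, stood at 30.8, 37.7 and 29.9 TPM in 2TG and 27.1, 18.8 and 30.7 TPM in 3TG (SE 0.240, limma adjusted p = 0.980). Replicate 2 of 3TG was the lowest of its group in 7 of 10 genes and replicate 3 the highest in 9. After median centring these counts were 8 and 7. For matn4 the interval was 0.758 to 1.37 and for cnmd 0.761 to 1.4. Summed TPM of the members was 867 ± 73.3 in 2TG and 836 ± 174 in 3TG. Summed bone markers were 203 to 211 TPM in 2TG and 71.2 to 208 TPM in 3TG, the lowest being 3TG replicate 2.

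Whether a member differed by another amount in 1 line than in another was tested in the fit over 24 libraries, for 10 members and 6 pairs of lines. Of these 60 tests none passed (smallest limma adjusted p = 0.175), and none of all genes tested did in any pair (0%). An unadjusted p under 0.05 occurred in 11, all of them in pairs with the tardbp line. Between smn1 and tardbp there were 6 of 10, where the share of all genes was 10.6%. The other pairs with tardbp had 3 of 10 against lin28a (19.2% of all genes) and 2 of 10 against sox9b (20.8%). The pairs without tardbp had 0 of 10 each, against 7.41% of all genes for smn1 and lin28a, 3.37% for smn1 and sox9b and 0.991% for lin28a and sox9b. After median centring none of these 11 was under 0.05, and 1 other of the 60 tests was, acana between smn1 and sox9b (unadjusted p = 0.0271, limma adjusted p = 0.902). For cnmd the smn1 difference exceeded the tardbp one by 1.27 (SE 0.424, limma adjusted p = 0.416), and by 0.86 after centring (limma adjusted p = 0.929). With tardbp 3TG replicate 3 also left out after centring it was 1.01, again under 0.05 unadjusted (limma unadjusted p = 0.0440, adjusted p = 0.834).

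**Figure D3:**
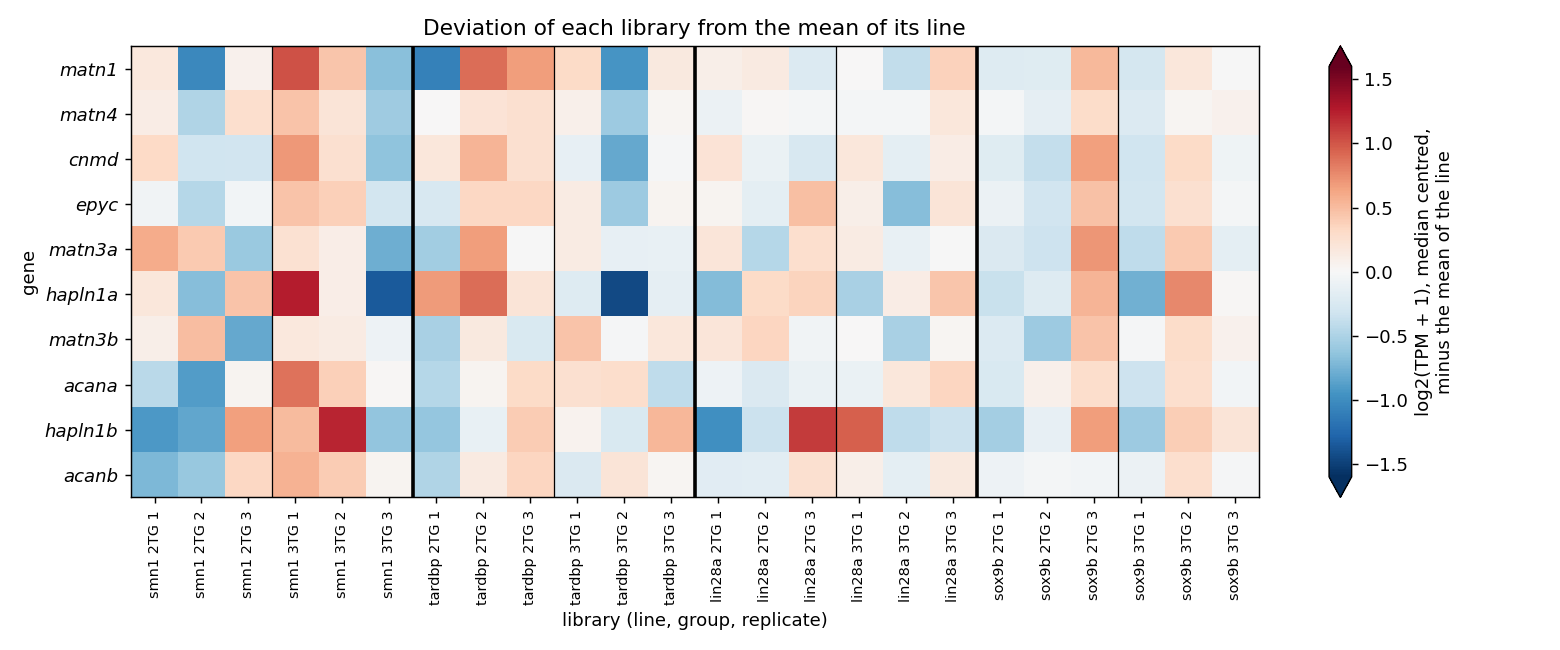
Deviation of each gene in each library from the mean of its line, on the median centred log2(TPM + 1) scale (red above, blue below), with thick lines between lines and thin lines between 2TG and 3TG. Whole columns take 1 colour, such as sox9b 3TG replicate 1, where all 10 genes were the lowest of their group.

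Several members are paralogs from the fish genome duplication, and a ratio within a library does not depend on its scaling. The aggrecan gene acana exceeded acanb in 24 of 24 libraries, by 1.1 to 2.65 times with a median of 1.73. The matrilin matn3a exceeded matn3b in 24 of 24, by 1.38 to 3.44 times with a median of 2.48. The link protein hapln1a exceeded hapln1b in 23 of 24, with a median of 5.00 and a far wider range of 0.702 to 16.1. The exception was lin28a 3TG replicate 1. In the lin28a line the hapln1a to hapln1b ratio lay between 0.702 and 3.55. In the sox9b line it lay between 6.79 and 9.88, without overlap between the 6 libraries of each. Every lin28a library is written with 6 significant digits and every sox9b library with 6 decimals, so line and number format cannot be told apart here. In smn1 the ratio was 11.7, 5.78 and 7.91 with 6 decimals and 4.04, 2.08 and 3.02 with 6 significant digits. In tardbp it was 12.2 in the library with 6 decimals and 2.55 to 16.1 in the others. The part of the format was not tested. Reads of paralogs can be divided between them by the quantification, so small shifts of these ratios are uncertain.

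In the tardbp line the matn3a to matn3b ratio took the values 2.39, 3.44 and 2.85 in 2TG and 1.91, 2.22 and 2.00 in 3TG, without overlap. The hapln1a to hapln1b ratio stood at 16.1, 12.2 and 5.00 in 2TG and 5.01, 2.55 and 3.84 in 3TG, overlapping by a single pair of nearly equal values. The test was run on the difference of log2(TPM + 1) values between paralogs, which is not exactly the printed ratio. On that scale the groups differed by -0.48 for matn3 and -1.41 for hapln1, and both gave a two-sided exact permutation p of 0.1, the smallest that 3 against 3 allows and 0.6 after adjustment over the 12 tests of 3 pairs in 4 lines. On the printed ratios, as log2 with no pseudocount, the exact permutation p was 0.1 for matn3 and 0.2 for hapln1 (0.686 for each after adjustment over the 12). In the other lines the exact permutation p of these differences of log2(TPM + 1) lay between 0.2 and 1. The aggrecan ratio in the tardbp line stood at 1.64, 1.42 and 1.47 in 2TG and 2.35, 1.62 and 1.1 in 3TG.

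**Figure D4:**
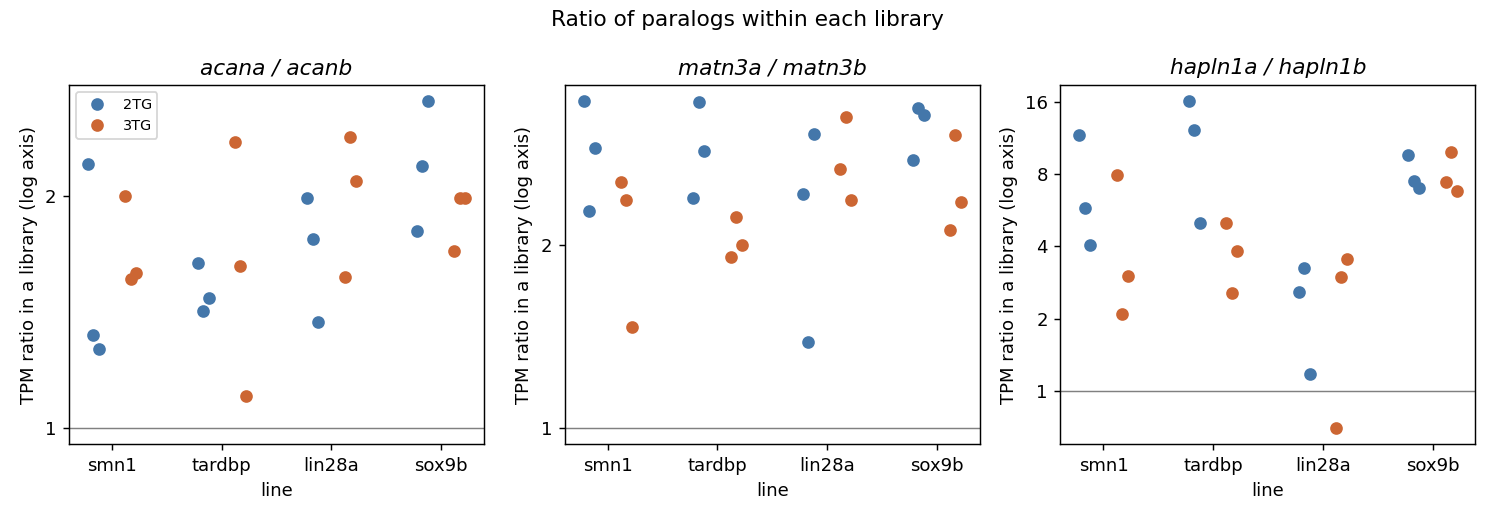
TPM ratio of the a to the b paralog in each library (log axis) by line and group, 1 panel for each pair, with a grey line at 1. The acana and matn3a ratios stay above 1 in 24 of 24 libraries, while the hapln1a to hapln1b ratio runs from 0.702 to 16.1.

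The members varied together across libraries to unequal degrees. Over the 24 libraries, on the median centred log2 scale and as deviations from the line mean, 18 of 45 pairs of members had a Pearson r of at least 0.5 and 5 pairs were below 0. The highest were matn4 with hapln1a (0.86), matn1 with matn4 (0.83) and matn4 with cnmd (0.80), and the aggrecan paralogs reached 0.76. By its median r with the other 9 members cnmd ranked first (0.64), followed by epyc (0.61), and matn3b was last (0.01). The points share the libraries and their scaling, and the deviations include the difference between groups, so these values describe the libraries only.

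Among 13799 other genes with a mean of at least 5 TPM, the gene most like the mean of the members by the same measure was col9a1a, a chain of the type IX collagen that coats cartilage fibrils (r = 0.93 over 24 libraries, Spearman's rho 0.89, r = 0.90 without the 2 libraries farthest out). It was followed by col5a2a (0.89), nog3 (0.89), degs2 (0.89), sema3aa (0.89), col6a1 (0.88), col11a2 (0.88) and FQ323119.1 (0.87). Cartilage collagens took 7 of the first 20 places, col2a1a at place 15 with r = 0.85. The chondrocyte regulators at this level were spread over the list, from hand2 at place 271 (r = 0.62) and barx1 at place 416 (r = 0.58) to bmpr1bb at place 7554 (r = 0.01). Among them sox9b stood at place 4362 (r = 0.20) and sox9a at place 5175 (r = 0.15).

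Other cartilage genes were read from 6 lists of 129 genes, of which 120 rows were in the tables, and 0 of them passed the threshold in any line. In the tardbp line 8 of 11 cartilage collagens were lower in 3TG without overlap, with a median difference of -0.96, against 29.1% of all genes tested and a median of -0.45, and 0 of 11 were without overlap after centring (median -0.52). The member of the list with the smallest p was col9a1b, another type IX chain (119.9 ± 27.1 against 44.2 ± 12.1 TPM, difference -1.43, limma adjusted p = 0.329). Among the enzymes and transporters of chondroitin sulfate synthesis, which build the chains of aggrecan, 15 of 27 were lower without overlap in that line, and 5 of 27 after centring, where the share of all genes was 8.53%. The sulfate donor enzyme papss1 had the smallest p (25.4 ± 5.09 against 9.84 ± 1.00 TPM, difference -1.27, limma adjusted p = 0.330). Of the chondrocyte regulators 8 of 17 were lower without overlap, and 3 after centring (median -0.15). The regulator of smallest p was sox9b (14.8 ± 2.46 against 6.28 ± 2.11 TPM, difference -1.15, limma adjusted p = 0.339), without overlap as deposited. After centring its difference was -0.71. As deposited, sox9a was also lower without overlap, from 29.8 TPM upward in 2TG and up to 27.3 TPM in 3TG. The groups of sox9a overlapped after centring. Whether either gene had a part in the members' values was not tested. The remaining 3 lists had medians above that of all genes after centring. Of the other hyaluronan-binding proteoglycans and linkers 4 of 11 were lower without overlap, with a centred median of 0.27. The gene of smallest p there, tenascin C (tnc), a matrix glycoprotein that binds such proteoglycans, stood at 64.7 ± 7.45 against 25.4 ± 6.69 TPM (difference -1.34, limma adjusted p = 0.329). Of the other matrix glycoproteins and small leucine-rich proteoglycans 2 of 25 were lower without overlap (centred median 0.22), and of the proteases and inhibitors 3 of 16 (centred median 0.11).

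In the smn1 line 11 of 11 cartilage collagens lay above 0, with a median of 0.22 that was -0.21 without 3TG replicate 1 and 0.59 without 3TG replicate 3. Of these, 1 was without overlap, where 19.2% of all genes tested were, the hypertrophic and bone collagen col10a1a (61.7 ± 15.7 against 112 ± 36.8 TPM, limma adjusted p = 0.362). The signal of maturing cartilage ihha had the smallest p of its list (2.78 ± 0.250 against 6.87 ± 0.561 TPM, limma adjusted p = 0.256). So did mia, which encodes a secreted cartilage protein (22.0 ± 3.41 against 62.9 ± 27.6 TPM, limma adjusted p = 0.270). Without overlap, all higher, were 3 of 18 regulators and 5 of 25 matrix glycoproteins and small leucine-rich proteoglycans, where 19.2% of all genes were. Of the chondroitin sulfate genes 10 lay above 0 and 16 below. Without overlap 2 were higher and 2 lower, b4galt7 among the lower (9.66 ± 1.21 against 5.70 ± 0.746 TPM). Of the proteases and inhibitors 8 lay above 0 and 8 below. Without overlap 2 were higher and 1 lower, timp2b (89.8 ± 94.7 against 13.7 ± 9.33 TPM). In the lin28a line sox9a was higher in 3TG without overlap (27.3 ± 9.91 against 44.5 ± 11.9 TPM, limma adjusted p = 0.980), as 1 of 19 regulators tested, where 6.56% of all genes had no overlap. Its highest 2TG value of 36.6 TPM was close to its lowest 3TG value of 37.3 TPM. After centring 0 of the 19 regulators were without overlap. In the sox9b line 0 of 11 collagens were without overlap, with a median difference of 0.13 where that of all genes tested was 0.07. Without 3TG replicate 2 the collagen median was -0.015.

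**Figure D5:**
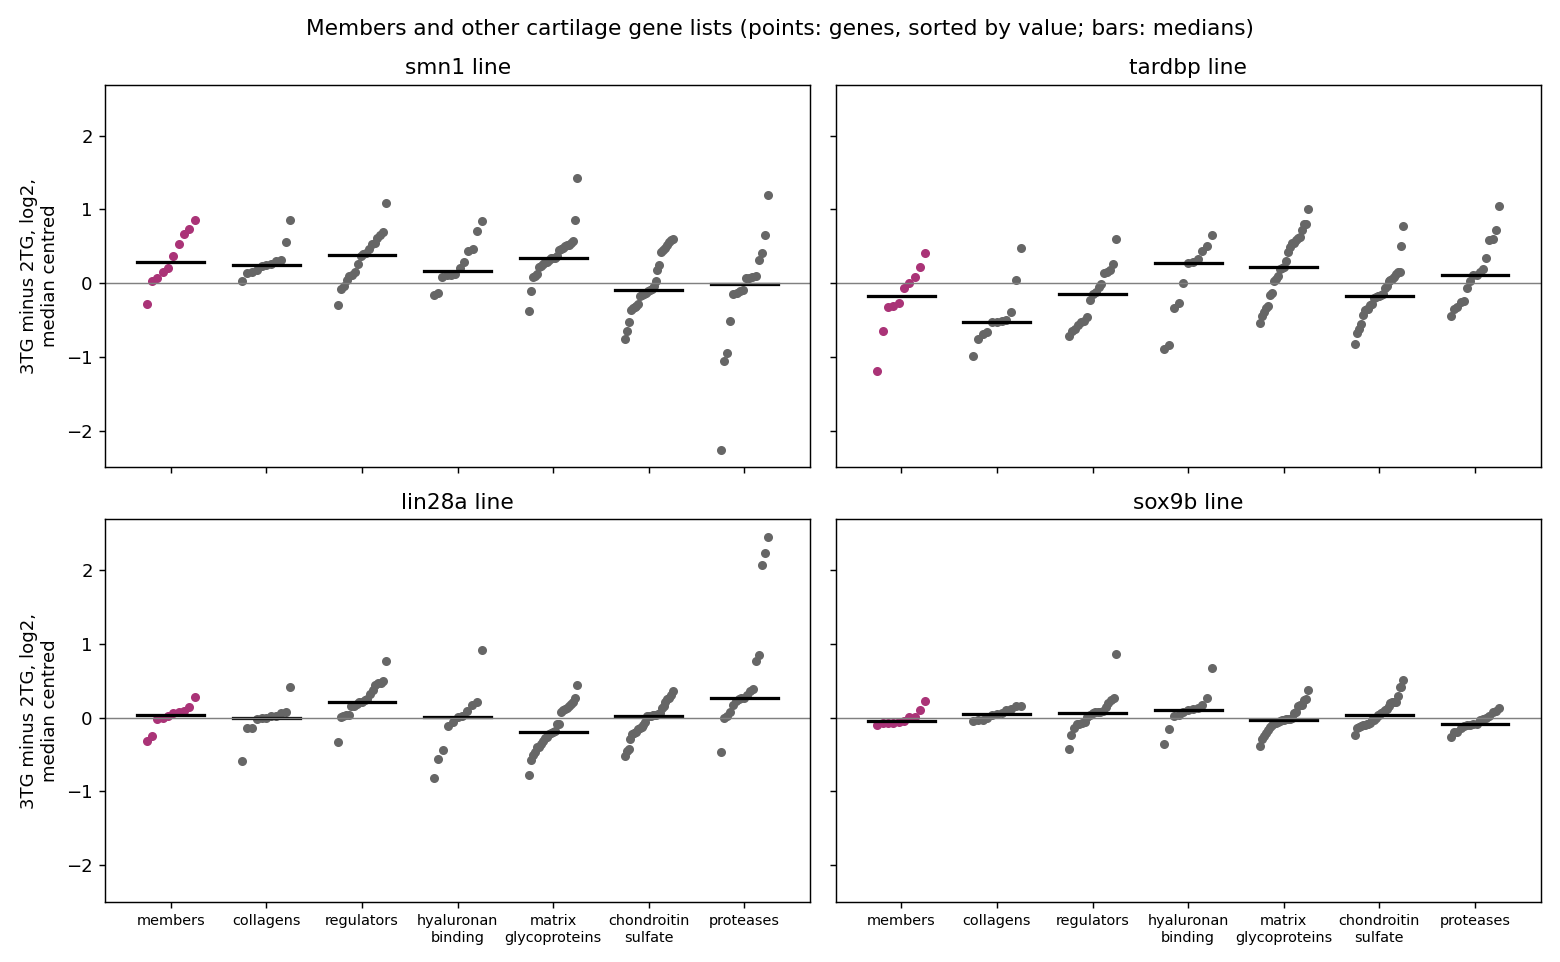
Median centred log2 difference of 3TG from 2TG for the 10 members and the genes of the 6 lists in each line, with points for genes sorted by value and bars for medians. In the tardbp line the collagens have a median of -0.52 and the members of -0.17, and in the sox9b line these medians are 0.05 and -0.05.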

How the data were processed

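The authors deposited TPM values per gene in 4 tables, a separate one for every line, per the file headers. The submitters' processing notes list STAR 2.7.10b, Salmon 1.10.1 and Trimmomatic 0.39 as tools, beside the builds danRer11 and GRCz11, with no role or order. The smn1 table has 13 unnamed columns, which were not used. Depth is not recorded in TPM, so no counting interval is given, and no library matched another exactly.

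Each line was fitted with limma 3.58.1 (R 4.3.3) on log2(TPM + 1), without scaling, 3 libraries against 3, for genes of at least 1 TPM in at least 3 of 6 libraries. The variance prior followed a trend in abundance, tests were two-sided, and p was adjusted by Benjamini-Hochberg over all genes tested. Fold intervals are at 95% on that scale and understate changes of low genes. Exact permutation tests, shares and ratios used SciPy 1.17.1 and pandas 2.3.3 in Python 3.11.15, and figures matplotlib 3.10.9. The fit was also run on simulated data with independent noise for each gene. These held no library-wide shift like that of tardbp 3TG replicate 3, so they do not cover that case. Other settings tried were pseudocounts of 0.1 and 5, omission of the filter, a minimum of 5 TPM, median centring, totals rescaled without mitochondrial and the 20 most abundant genes, the replicate number as a block, the number format, 1 fit over 24 libraries, and each library left out.

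The members and lists were chosen with earlier results of these data known. All members are named, and from each list the gene of smallest p on either side of 0 could be named, with the 8 genes most like the members.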

Additional observations from a re-analysis of the deposited data

How the results depend on the processing

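With 3 libraries a group and unknown depth, differences of the members' size were seldom resolved, and no member passed the threshold in its own line's fit under any alternative or leave-out run. In the 1 fit over 24 libraries 2 members passed for tardbp, among 3108 genes. The count of all genes past the threshold in tardbp was 2, and 0 with a pseudocount of 0.1, no filter, median centring or rescaled totals, 53 with centring without 3TG replicate 3, and 0 to 176 when a library was left out. In smn1 it was 0, and 0 to 2 in leave-outs. Same-numbered deviations of the 2 groups correlated at 0.29, -0.04 and -0.06 in smn1 and at -0.06, 0.15 and -0.23 in tardbp. They correlated at 0.38, 0.05 and 0.24 in lin28a and at 0.26, -0.34 and -0.14 in sox9b. With 3 libraries a group, these values do not settle whether replicate numbers pair the libraries. With the replicate block 0 members passed in each line and 28 genes in tardbp.

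Overlap under scaling and leave-outs, and centring together with leaving out tardbp 3TG replicate 3 in the tests between lines, and the paralog ratio with no pseudocount, were alternatives chosen after seeing the data. When a library was left out, members without overlap numbered 0 to 4 of 10 in smn1 (22.8% to 38.4% of all genes), 3 to 8 in tardbp (33.5% to 46.5%), 0 to 1 in lin28a (11.7% to 23.8%) and 0 to 1 in sox9b (10.4% to 22.1%). With rescaled totals tardbp had 1 (18.2% of all genes).

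Several differences turned sign, in tardbp also those of acana (-0.36), acanb (-0.44) and hapln1b (-0.22). Centring moves all differences of a line by the same amount. For the other settings the cause was not tested. In smn1 hapln1a was 0.027 with a pseudocount of 5, 0.024 centred and 0.19 with the number format. In tardbp centring gave acana 0.077, acanb 0.0012, matn3b 0.41 and hapln1b 0.22, rescaling gave matn3b 0.36 and hapln1b 0.15, and centring without 3TG replicate 3 gave acana 0.30, matn3b 0.42 and hapln1b 0.015. In lin28a rescaling gave acanb -0.011 and matn4 -0.00126, and centring gave matn3a 0.00135 and hapln1a 0.021. In sox9b centring gave acana -0.072, matn1 -0.075, matn4 -0.076, epyc -0.042 and cnmd -0.055, and the hapln1a to hapln1b log2 ratio with no pseudocount was -0.0058.

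Leaving out each library in turn gave ranges that crossed 0. In smn1 they were -0.65 to 0.0080 for matn3a, -0.22 to 0.40 for matn3b, -0.20 to 0.33 for matn4, -0.65 to 0.67 for hapln1a and -0.14 to 0.55 for cnmd. In tardbp they were -0.69 to 0.17 for acana, -0.26 to 0.29 for matn3b, -0.55 to 0.089 for hapln1b and -0.15 to 0.32 for the acana to acanb log2 ratio. In lin28a they were -0.12 to 0.20 for acanb, -0.30 to 0.15 for matn1, -0.27 to 0.13 for matn3a, -0.091 to 0.091 for matn4, -0.43 to 0.27 for hapln1a, -0.42 to 0.73 for hapln1b, -0.035 to 0.16 for cnmd and -0.54 to 0.59 for the hapln1a to hapln1b ratio. In sox9b they were -0.16 to 0.17 for acana, -0.11 to 0.16 for matn1, -0.26 to 0.22 for matn3a, -0.045 to 0.10 for matn4, -0.30 to 0.49 for hapln1a, -0.17 to 0.39 for hapln1b, -0.12 to 0.19 for epyc, -0.15 to 0.25 for cnmd and -0.18 to 0.10 for the hapln1a to hapln1b ratio.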
